A study of Mus musculus with 5 samples.

Results

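G2/M and mitosis genes were examined in RNA-seq of sorted mouse haematopoietic stem cells (HSCs). The set was a fixed list of 37 symbols, of which 35 had a row in the table of 11643 genes; Foxm1, a transcription factor of G2 genes, and Aurkb, the Aurora B kinase, were not analysed here. All 35 had a mean of at least 1 FPKM (fragments normalised to transcript length and to the library's mapped fragments) over the 5 libraries, the minimum for testing, so none was lost to that filter. The 35 were part of 10570 tested genes. The libraries came from Lin-, c-Kit+, Sca1+, CD150+, CD48- bone marrow cells of mice on a C57BL/6 background. Those labelled control numbered 3. Another 2 were labelled Tle1/3/4-deficient, in which floxed Tle1, Tle3 and Tle4 were to be removed by Vav-Cre, a recombinase active in all blood cells. The sources used here do not give the age or sex of the mice, nor whether controls carried floxed alleles or Vav-Cre. Names of the control columns begin with VavC, and what these letters stand for is not stated. TLE proteins are co-repressors brought to DNA by partner transcription factors, and the comparison asked how their loss alters expression in HSCs.

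Entry into mitosis is driven by CDK1 bound to A- and B-type cyclins, which CDC25 phosphatases switch on. Aurora and Polo kinases, motor proteins and kinetochores then build the spindle and attach chromosomes to it, while the spindle checkpoint holds back the anaphase-promoting complex (APC/C) until attachment is complete. Most genes of this programme are transcribed in late S and G2 phase, so in a bulk sample their RNA follows the share of cells close to division. HSCs of the adult marrow are largely quiescent. In such a sample fewer cells of a type and less RNA per cell cannot be told apart.

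Across the series the columns summed to 599137 to 683822 FPKM. Absolute depth is unknown; the commonest ratio of values under 0.3 FPKM, shared by 8 to 36 genes per library, put the other libraries at 1.11 to 1.46 times the depth of control replicate 1. Tle3 went against the label, at 2.48, 4.97 and 5.61 FPKM in the controls, against 32.3 and 31.6 FPKM in the deficient-labelled pair (limma, adjusted p = 0.424). Tle4 was at 5.67, 0.0129 and 5.29 against 0.353 and 0.203 FPKM, and Tle1 at 1.83, 0.811 and 3.33 against 2.84 and 4.37 FPKM. These values cover whole genes and do not test the floxed part, so every direction here rests on the labels. The gate genes Kit and Slamf1 (CD150) were present in every library. Ly6a (Sca-1) had 14.05 FPKM in deficient-labelled replicate 2 and 57.8 FPKM or more elsewhere. Cd48 was highest in that same library, at 23.4 FPKM. The labels do not tie replicates to separate mice; a p-value here therefore reflects library-to-library spread, possibly technical in part.

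Most mitotic transcripts stood higher in the deficient-labelled libraries, and none passed the test over all genes. Values of both deficient-labelled libraries lay above every control for 15 of the 35 members, against 10.2% of all tested genes, and below every control for 2, against 15.9%. The 15 were Ccna2, Ccnb1, Cdk1, Cks2, Cdca3, Plk1, Nek2, Birc5, Ube2c, Cenpa, Kif20a, Nusap1, Tacc3, Hmmr and Mki67. The 2 below were the checkpoint genes Bub1 and Bub1b. The log2 fold change, deficient-labelled minus control on the log2(FPKM + 1) scale, was positive in 27 of 35 members, against 44.3% of tested genes. Its median was 0.62 over the members and -0.10 over all tested genes. The set was chosen with these libraries already analysed, so the counts are a description of the members and carry no test of the list.

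None of the 35 passed an adjusted p of 0.05 (limma, Benjamini-Hochberg over 10570 genes), where 0.0189% of all genes did, and the lowest adjusted p among members was 0.439, for Cenpa. At an unadjusted p under 0.05 there were 7 members, all higher (Cenpa, Cdk1, Ccnb1, Kif20a, Cks2, Hmmr and Ccna2), against 3.26% of all genes in that direction. No member was lower at that level, where 5.18% of genes were. The median was 0.36 without control replicate 1, which held the lowest value of 18 members against 22.2% of all tested genes. The count above every control was then 17, but leaving out a library can only keep or raise that count. The share over all genes was not taken for that omission. Scaling the libraries by median of ratios moved the median of all genes from -0.10 to 0.012 and that of the members to 0.74, with 28 positive.

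**Figure D1:**
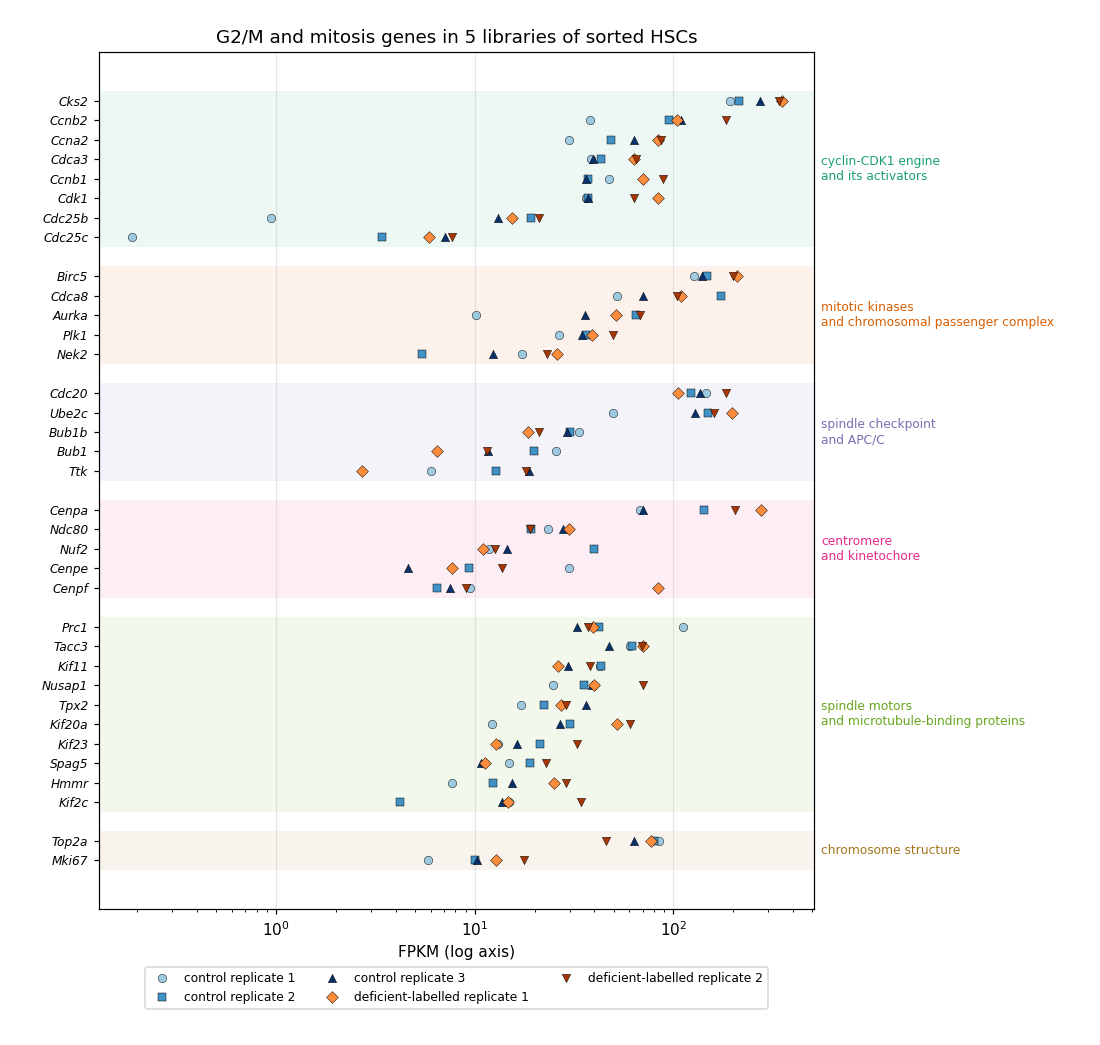
FPKM of the 35 G2/M and mitosis genes on a log axis, 1 row per gene, grouped by role and ordered by control mean; each point is 1 library. Control replicate 1 lies far to the left for Cdc25b, Cdc25c and Aurka, and both deficient-labelled libraries lie right of all controls for 15 genes.

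Summed over the 35 members, expression was 1430, 1859 and 1664 FPKM in controls (replicates 1, 2 and 3, the order used throughout) against 2356 and 2438 FPKM in the deficient-labelled pair (replicates 1 and 2). The groups did not overlap in this sum. Sums, and the ratio below, give most weight to the most abundant genes. The members' median was 26.6, 36.3 and 32.9 FPKM in controls against 39.3 and 38.1 FPKM. It did not overlap either, but control replicate 2 lay close to the deficient-labelled pair. Genes of S phase and DNA replication, the step before G2, were summed for comparison over 40 genes with a row. They stood at 3211, 2951 and 3040 FPKM in controls, against 3013 and 2444 FPKM for the deficient-labelled pair, with replicate 1 inside the control range and replicate 2 below it. Dividing the mitotic sum by the replication sum within each library, which removes any scaling between libraries, gave 0.445, 0.63 and 0.547 for controls, against 0.782 and 0.998 for the deficient-labelled pair. Of the 40 replication genes 12 had a positive fold change (18 after median-of-ratios scaling), with a median of -0.15. None passed (limma; at an unadjusted p under 0.05 there was 1 in each direction). Mcm6, a subunit of the replicative helicase, was at 276 ± 29.2 against 218 ± 11.1 FPKM (SD, n = 3 and 2), and Rfc2, of the clamp loader, at 247 ± 72.05 against 199.7 ± 32.6 FPKM. Gins3 had the largest difference of that list, at 66.5, 2.86 and 16.9 against 0.0793 and 15.8 FPKM (limma, adjusted p = 0.729). Whether the mitotic and replication lists differ from one another was not tested.

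Against the control range, the pattern was present in each deficient-labelled library, less so in replicate 1. Replicate 1 was above every control for 17 members and below for 7, and replicate 2 for 23 and 4. Over all tested genes the corresponding shares were 26.5% and 28.6% for replicate 1, and 21.6% and 33.4% for replicate 2. Replicate 2 held the highest value of the 5 libraries for 16 of the 35 members (16.4% of all genes) and the lowest for 2 (25.6%). Replicate 1 held the highest for 9 (21.5%) and the lowest for 7 (20.6%), both near the share over all genes. The median difference from the control mean was 0.50 in replicate 1 and 0.63 in replicate 2. The members' median SD of log2(FPKM + 1) was 0.28 between the deficient-labelled libraries and 0.47 between controls, against 0.47 and 0.53 over all tested genes. The deficient-labelled SD rests on fewer libraries than the control SD, so these are not directly comparable.

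Lists of genes taken as markers of other blood cell types also differed between these libraries. Whether HSCs themselves expressed these genes was not tested. All 11 late neutrophil granule genes with a row (S100a8, S100a9, Ngp, Camp and others) had positive fold changes, and their summed level was 293 to 2677 FPKM in controls, 10840 FPKM in replicate 1 of the deficient-labelled pair and 66320 in its replicate 2. The 7 primary granule genes, made by dividing myeloid precursors, summed to 411 to 624 FPKM in controls, against 586 and 3587 FPKM for the deficient-labelled pair. In deficient-labelled replicate 1, of these 7, Mpo and Elane lay below every control (1.15 and 0.985 FPKM), Prtn3 and Ms4a3 above (449.96 and 3.87 FPKM) and 3 inside the control range; in replicate 2 all 7 lay above. The 10 erythroid genes summed to 70.3 to 97.9 FPKM in controls against 188 and 717 FPKM, all with positive fold changes, and Alas2 and Ermap were at 0 in control replicate 1. Megakaryocyte and platelet genes (9 of 9 positive) summed to 443 to 1126 against 8251 and 3726 FPKM. Of the B cell genes, Cd79a was at 0, 6.12 and 4.10 FPKM in controls against 0 and 38.5 FPKM, Cd79b at 59.5, 42.6 and 44.9 against 16.4 and 68.2, and Vpreb1 at 0, 0 and 0.0794 against 4.70 and 37.1. Of the T and NK cell list only Nkg7 had a row, at 41.2, 105.2 and 34.0 against 345 and 193 FPKM, above every control (log2 fold change 2.26, SE 0.52; limma, adjusted p = 0.431). The 9 genes of the HSC gate and identity summed to 661 to 792 FPKM in controls and to 534 and 405 FPKM, with 7 negative. Cd48, which the gate selects against, is among the 9. The part of these cell types in the mitotic values was not tested.

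**Figure D2:**
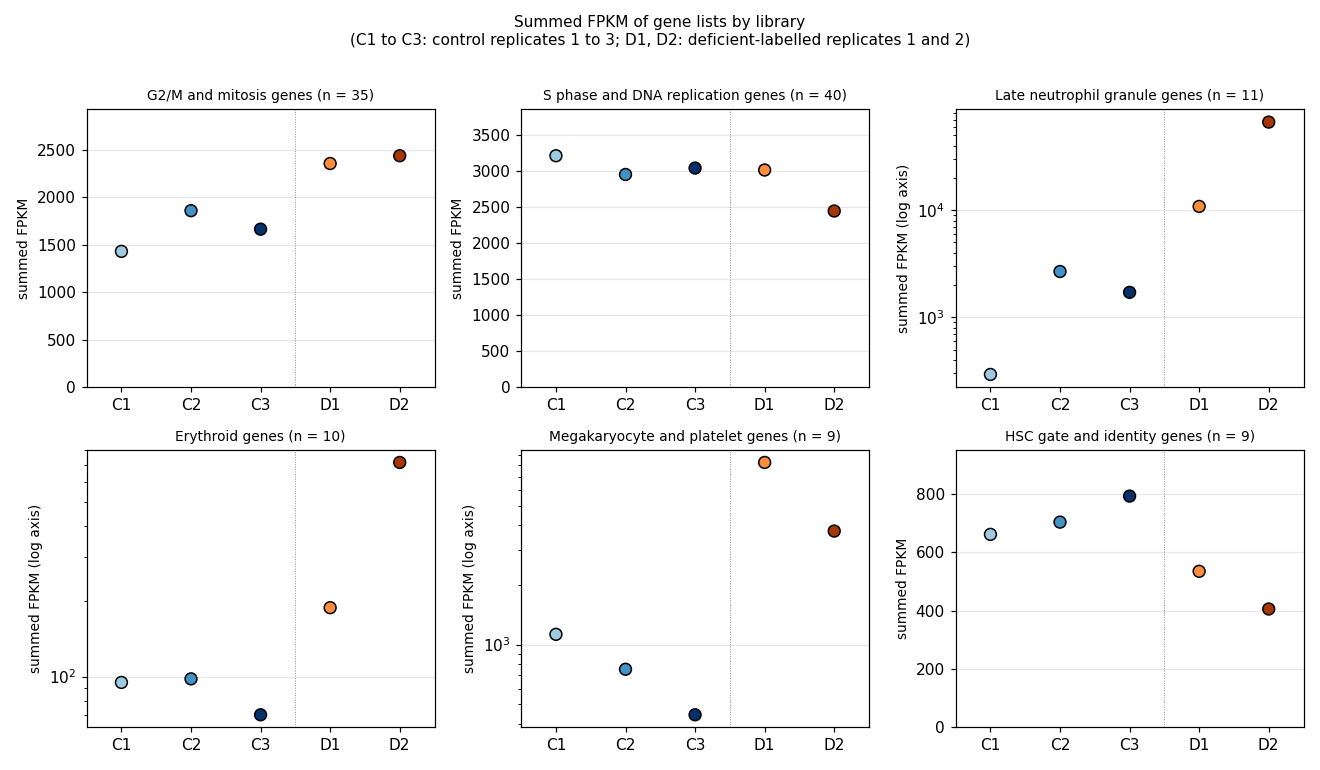
Summed FPKM of 6 gene lists in each library (C1 to C3, control replicates; D1 and D2, deficient-labelled replicates); marker panels with a wide range have a log axis. The mitotic sum is 2356 and 2438 FPKM in D1 and D2 against at most 1859 in controls, the replication sum lies inside or below the control range, and neutrophil transcripts are highest in D2.

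Many promoters of this programme carry a CHR element (cell cycle genes homology region, letters TTTGAA), bound by the DREAM and MuvB complexes, and CCAAT boxes, bound by NF-Y. Windows from 250 bases before to 50 after the start site were available from RefSeq (GRCm38.p6) for 31 of the 35 members. With both strands searched, 21 of 31 members held a CHR, against 20.2% of 27025 genes, and 25 held CCAAT, against 41.1%. Both motifs stood in 19 of 31, against 7.97% of all genes, and 18 had at least 2 CCAAT boxes, against 13.3%. Of 25 distinct CHR matches, with overlapping windows of a gene counted once, 13 lay after the start site and 1 overlapped a CCAAT match. Among the 13 members above every control that had a window, 7 held a CHR, as did 14 of the other 18. The E2F-like words TTTCCCGC, TTTGGCGC, TTTCGCGC and TTTGCCGC occurred in 1 of 31, against 2.6% of genes. A match is a run of letters and not a shown binding site. The 120 bases before the start site follow, 5′ to 3′ on the gene's strand, for 7 members whose deficient-labelled values lay above every control and for Bub1 and Bub1b, which lay below. They show promoters of members that stood apart in opposite directions. The 7 are a selection from the 13 members above every control with a window, and do not represent the rest. Capitals mark CHR (TTTGAA or TTCAAA) and CCAAT (or ATTGG) matches.
Cdk1: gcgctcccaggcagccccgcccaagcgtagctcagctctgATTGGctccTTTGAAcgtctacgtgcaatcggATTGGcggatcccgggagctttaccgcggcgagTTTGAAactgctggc
Ccnb1: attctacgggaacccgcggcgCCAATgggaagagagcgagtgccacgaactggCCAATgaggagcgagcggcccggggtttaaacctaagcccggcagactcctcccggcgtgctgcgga
Cks2: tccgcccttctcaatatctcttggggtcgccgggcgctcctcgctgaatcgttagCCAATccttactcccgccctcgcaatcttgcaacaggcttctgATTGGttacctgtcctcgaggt
Ube2c: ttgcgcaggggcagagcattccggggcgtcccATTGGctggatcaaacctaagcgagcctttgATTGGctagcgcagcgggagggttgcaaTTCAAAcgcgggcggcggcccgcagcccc
Cenpa: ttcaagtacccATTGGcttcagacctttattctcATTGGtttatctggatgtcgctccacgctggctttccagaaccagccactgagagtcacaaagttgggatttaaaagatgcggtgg
Hmmr: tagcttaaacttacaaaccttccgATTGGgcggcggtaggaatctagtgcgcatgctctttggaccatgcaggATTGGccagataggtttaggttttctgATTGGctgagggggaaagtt
Birc5: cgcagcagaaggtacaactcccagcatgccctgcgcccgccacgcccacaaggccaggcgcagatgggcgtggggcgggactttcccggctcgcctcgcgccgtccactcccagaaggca
Bub1: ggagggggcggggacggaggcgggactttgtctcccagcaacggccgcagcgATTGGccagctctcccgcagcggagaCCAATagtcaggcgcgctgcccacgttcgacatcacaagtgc
Bub1b: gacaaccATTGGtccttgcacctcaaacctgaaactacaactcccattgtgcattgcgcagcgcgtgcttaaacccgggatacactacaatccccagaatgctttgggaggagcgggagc

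The stretches are Cdk1 chr10:69352913-69353032 (minus strand), Ccnb1 chr13:100786487-100786606 (minus strand), Cks2 chr13:51645112-51645231 (plus strand), Ube2c chr2:164769809-164769928 (plus strand), Cenpa chr5:30666766-30666885 (plus strand), Hmmr chr11:40733438-40733557 (minus strand), Birc5 chr11:117849117-117849236 (plus strand), Bub1 chr2:127831860-127831979 (minus strand) and Bub1b chr2:118598091-118598210 (plus strand). In Cdk1 the CHR matches began at bases -71 and -15 from the start site, among CCAAT matches at -80 and -48. Ube2c had a CHR on the other strand at -29 downstream of CCAAT matches at -88 and -57. The CHR of Cenpa and of Hmmr began at bases 17 and 9 after the start, outside the stretch shown. Bub1 held 2 CCAAT matches, at -68 and -42, and no CHR in its window, and Bub1b held 1 CCAAT match at -113 and a CHR at base 41. Ccnb1 and Cks2 had CCAAT matches and no CHR, and Birc5 neither, which says only that these letters are not in these windows.

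In the cyclin-CDK1 engine all 8 members with a row had positive fold changes, and 5 lay above every control. Cdk1, the kinase itself, was at 36.4, 37.2 and 37.1 FPKM in the controls, against 83.6 and 63.0 FPKM in the deficient-labelled pair. The highest control was 1.02 times the lowest, and both deficient-labelled values stood well above them (log2 fold change 0.96, SE 0.31, 95% interval 0.23 to 1.69; limma, adjusted p = 0.487). Its mitotic partner Ccnb1 (cyclin B1) was at 47.3, 37.1 and 36.4 against 70.2 and 88.4 FPKM, again without overlap (0.96, SE 0.32, adjusted p = 0.491). Ccna2 (cyclin A2), which acts from S phase into G2, was at 29.8, 48.4 and 63.7 against 83.6 and 86.4 FPKM. Cks2, a small subunit of cyclin-dependent kinases and the most abundant member per length, was at 192, 214 and 274 against 349.95 and 340.1 FPKM. Both again stood above the highest control, control replicate 3. Cdca3, an adaptor that promotes degradation of the CDK1 inhibitor Wee1, was at 38.5, 43.4 and 39.3 against 63.6 and 64.8 FPKM.

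The groups overlapped for the remaining genes of this class. Ccnb2 (cyclin B2) was at 37.8, 95.3 and 109 FPKM in controls and at 104 and 184 FPKM. The phosphatase genes Cdc25b and Cdc25c, whose products activate CDK1, were at 0.944, 19.3 and 13.1 against 15.4 and 21.02 FPKM, and at 0.187, 3.43 and 7.06 against 5.91 and 7.71 FPKM. In all of these control replicate 1 was the lowest library, by a factor of 20.4 below the highest control for Cdc25b and 37.7 for Cdc25c. The median log2 fold change of the class was 0.93, or 0.56 without control replicate 1, with all 8 still positive.

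Among mitotic kinases and the chromosomal passenger complex, which corrects attachments and guides cytokinesis, all 5 members with a row had positive fold changes and 3 lay above every control. Birc5 (survivin), a passenger subunit, was at 128, 147 and 139 against 208 and 199.8 FPKM (log2 fold change 0.56, SE 0.24, 95% interval -0.0074 to 1.13; limma, adjusted p = 0.591). Plk1, the Polo-like kinase, was at 26.6, 36.3 and 34.7 against 39.1 and 49.8 FPKM, so that deficient-labelled replicate 1 stood just above control replicate 2. Nek2, a kinase that separates centrosomes, was at 17.4, 5.44 and 12.3 against 26.1 and 23.02 FPKM, clear of the controls. Groups overlapped for the others. Aurka (Aurora A), needed for spindle poles, was at 10.2, 64.6 and 35.9 against 51.7 and 68.02 FPKM. Cdca8 (borealin) was at 51.8, 173 and 70.6 against 109 and 104 FPKM, and its fold change of 0.30 was -0.057 without control replicate 1.

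The spindle checkpoint and APC/C genes divided. Of the checkpoint genes, Bub1 and Bub1b were on the low side in the deficient-labelled libraries. Bub1 was at 25.6, 19.8 and 11.7 against 6.46 and 11.6 FPKM, and Bub1b (BubR1) at 33.3, 30.2 and 29.04 against 18.5 and 21.2 FPKM. Neither overlapped as deposited (log2 fold changes -0.98, SE 0.56, and -0.61, SE 0.37; limma, adjusted p = 0.666 and 0.68). For Bub1 the margin to control replicate 3 was small, and its groups overlapped after median-of-ratios scaling and after quantile normalization, whereas those of Bub1b did not. Ttk (MPS1), the kinase that starts checkpoint signalling, was at 6.04, 12.8 and 18.7 against 2.70 and 18.1 FPKM. Its fold change of -0.56 turned to 0.62 without deficient-labelled replicate 1. Ube2c, the ubiquitin-conjugating enzyme of the APC/C, was at 49.4, 149.98 and 129 against 197 and 159.8 FPKM, above every control. Cdc20, the APC/C activator that the checkpoint restrains, was at 146, 122 and 136 against 105 and 183 FPKM. Its deficient-labelled values were the lowest and the highest of the 5 libraries.

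At the centromere, only Cenpa of the 5 members with a row lay clear of the controls as deposited. It encodes the histone H3 variant that marks where kinetochores form. It was at 68.1, 142 and 70.6 FPKM in the controls, against 275 and 203 FPKM in the deficient-labelled pair (log2 fold change 1.41, SE 0.39, 95% interval 0.51 to 2.31; limma, adjusted p = 0.439). Both values exceeded control replicate 2, the highest control. Cenpf, a kinetochore and nuclear envelope protein of G2, had the largest fold change of any member, 1.74 (SE 0.87), and rested on 1 library. Control values were 9.44, 6.46 and 7.53 FPKM; deficient-labelled replicate 1 had 83.8 FPKM, but replicate 2 had 8.99 FPKM, inside the control range as deposited and above it after either scaling. The outer kinetochore pair Ndc80 and Nuf2, which form 1 complex that grips microtubules, did not stand apart. Ndc80 was at 23.5, 19.3 and 27.8 against 29.7 and 18.9 FPKM, and Nuf2 at 11.8, 39.8 and 14.5 against 11.0 and 12.7 FPKM. Cenpe, a kinetochore motor, was at 29.9, 9.38 and 4.61 against 7.68 and 13.7 FPKM, and its fold change of -0.11 was positive after both scalings (0.0084 by median of ratios, 0.045 by quantiles).

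Of 10 spindle motors and microtubule-binding proteins, 8 had positive fold changes and 4 lay above every control. Kif20a, a kinesin that carries the passenger complex to the midzone, was at 12.2, 30.3 and 26.9 against 51.8 and 60.6 FPKM (log2 fold change 1.34, SE 0.47, 95% interval 0.25 to 2.42; limma, adjusted p = 0.505). Hmmr (RHAMM), a spindle assembly protein, was at 7.64, 12.4 and 15.4 against 24.97 and 28.8 FPKM (1.17, SE 0.49, adjusted p = 0.584). In both genes control replicate 1 was the lowest library and the deficient-labelled values were well clear of the highest control. Nusap1, which bundles spindle microtubules, was at 24.8, 35.3 and 38.99 against 40.1 and 70.5 FPKM, the nearest pair differing by little, and its groups overlapped after quantile normalization. Tacc3, which stabilises spindle fibres, was at 60.5, 61.97 and 47.5 against 70.5 and 69.6 FPKM.

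Groups overlapped for the other 6. Kif2c (MCAK), a microtubule depolymerase, was at 14.8, 4.23 and 13.7 against 14.7 and 34.2 FPKM, and lay above every control after either scaling. Tpx2, the activator of Aurora A, was at 17.1, 22.4 and 36.1 against 27.3 and 28.7 FPKM. The partners of the central spindle, Kif23 and Prc1, were not alike: Kif23 was at 13.1, 21.3 and 16.3 against 12.8 and 32.6 FPKM, and Prc1 at 112, 42.4 and 32.9 against 39.3 and 37.3 FPKM. Prc1 was high in control replicate 1, the library that was lowest for most members. Spag5 (astrin) was at 14.9, 18.98 and 10.8 against 11.2 and 22.97 FPKM, and Kif11 (Eg5), which pushes spindle poles apart, at 42.6, 43.2 and 29.6 against 26.3 and 38.1 FPKM.

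Of the common markers of cycling cells, Mki67 (Ki-67), which coats mitotic chromosomes, was at 5.84, 10.1 and 10.2 FPKM in the controls, against 12.8 and 17.7 FPKM in the deficient-labelled pair, without overlap (log2 fold change 0.76, SE 0.56, 95% interval -0.54 to 2.06; limma, adjusted p = 0.726). Top2a, the topoisomerase that untangles sister chromatids, was at 84.3, 79.4 and 63.5 against 77.1 and 45.7 FPKM, lowest in deficient-labelled replicate 2 (-0.34, SE 0.34; limma, adjusted p = 0.804). Without that library its fold change was 0.036. Per length, Mki67 was also among the lowest members in the controls, with Cdc25c and Cenpf, whereas Cks2, Birc5 and Cdc20 were the highest, at 227 ± 42.1, 138 ± 9.92 and 135 ± 12.05 FPKM (SD, n = 3). Birc5 and Cdc20 were within a control SD of each other.

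**Figure D3:**
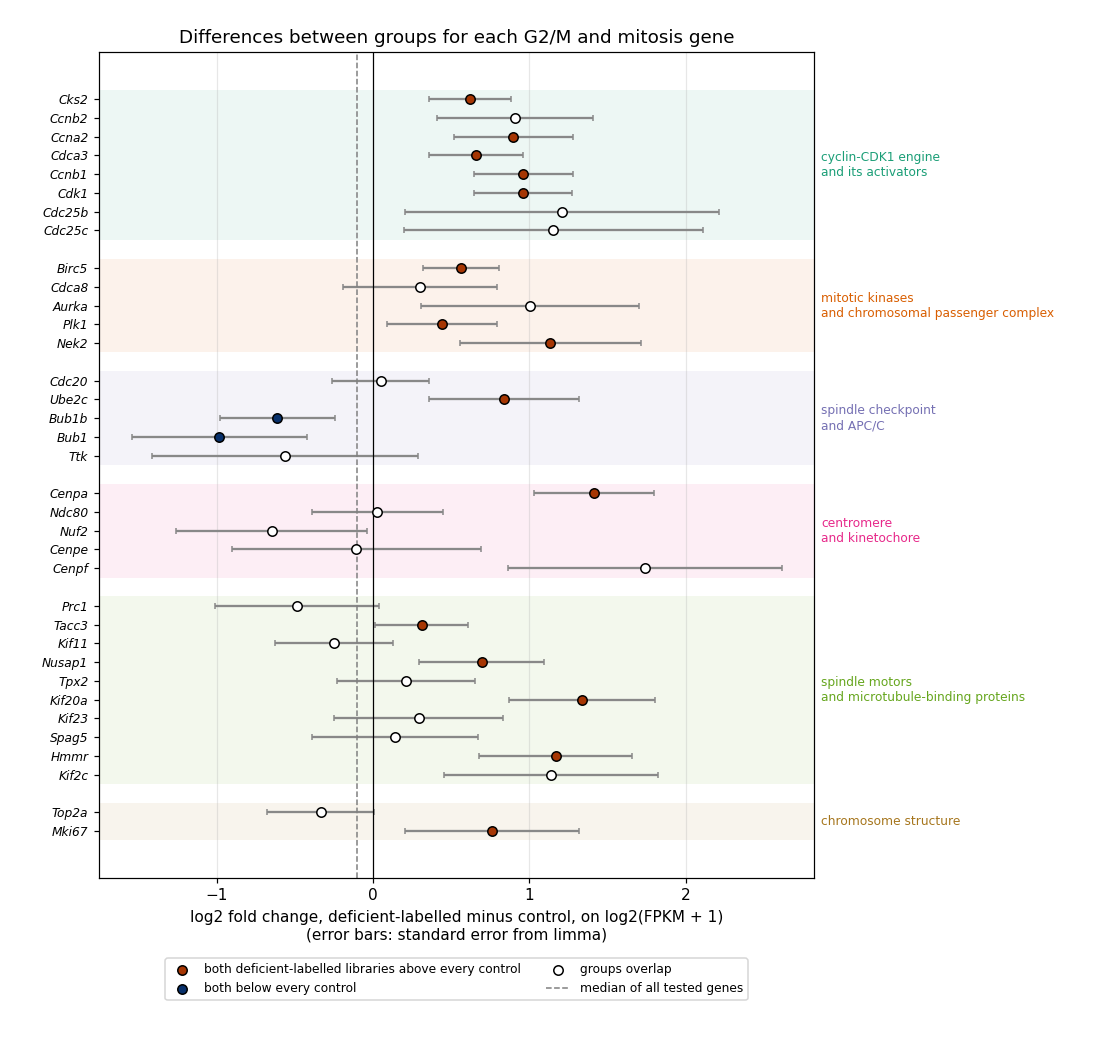
Log2 fold change of each member, deficient-labelled minus control on the log2(FPKM + 1) scale, with limma's standard error; filled points mark groups that do not overlap, and the dashed line is the median of all tested genes at -0.10. All 8 cyclin-CDK1 genes lie right of 0, Cenpa and Kif20a lie at 1.41 and 1.34, and Bub1 and Bub1b lie at -0.98 and -0.61.

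Other genes of mitosis and its regulators were taken from 6 further lists, with 130 genes tested. None of the 130 passed (limma), 2 were higher and 5 lower at an unadjusted p under 0.05. Above every control lay 21 and below every control 11, which is 16.2% and 8.46%, against 10.2% and 15.9% of all genes. Their positive fold changes numbered 78, with a median of 0.13, nearer to the background than the 35 members.

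Spindle and cytokinesis genes outside the set were positive in 21 of 27. Their median of 0.33 became 0.197 on leaving out deficient-labelled replicate 2, and 0.69 on leaving out replicate 1. Ckap2l, a spindle protein, was at 36.8, 35.2 and 20.6 against 83.5 and 58.2 FPKM, without overlap (log2 fold change 1.19, SE 0.39; limma, adjusted p = 0.491). Kif22, a kinesin of chromosome arms, was at 68.0, 37.9 and 60.9 against 60.4 and 71.3 FPKM. Kinetochore and centromere genes were positive in 23 of 35, with a median of 0.12 that was 0.066 without control replicate 1 and 0.26 without deficient-labelled replicate 2. Bub3, the binding partner of Bub1 and Bub1b, was at 129.9, 239.99 and 159 against 163 and 137 FPKM, and Pmf1, of the Mis12 complex, at 169, 224 and 123 against 210.3 and 144 FPKM. Both overlapped between groups. Cenpm, of the inner kinetochore, had the largest difference of that list, at 104, 89.3 and 54.5 FPKM in controls against 0.234 and 25.5 FPKM (log2 fold change -3.82, SE 1.12; limma, adjusted p = 0.439). It thus lay opposite to Cenpa.

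Genes of the core and of regulators of the APC/C, the ligase that Cdc20 and Ube2c serve, were positive in 5 of 15. Their median was -0.18 and turned to 0.10 without control replicate 3 and to 0.023 without deficient-labelled replicate 2. Anapc13 was at 279, 437 and 429 against 335 and 170.3 FPKM, Anapc5 at 262, 310.5 and 211 against 215 and 206 FPKM, and Anapc7 at 65.5, 19.6 and 23.03 against 8.97 and 12.2 FPKM. Only Anapc7 of these 3 had no overlap, lying below every control. Condensin, cohesin and separase genes were positive in 11 of 21, with a median of 0.017 that ranged from -0.037 to 0.15 when 1 library was left out. Among them, Ncaph2 was at 84.4 ± 24.8 against 95.2 ± 13.1 FPKM, Smc1a at 84.9 ± 18.5 against 62.75 ± 28.6, and Ncapg2 at 5.54 ± 2.31 against 10.05 ± 2.30 (SD, n = 3 and 2).

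Regulators of mitotic entry were positive in 8 of 14, with a median of 0.44. It was lower whichever library was left out, from 0.056 without control replicate 1 to 0.31 without control replicate 2. Cks1b, the paralogue of Cks2, was at 379, 321 and 303 against 269 and 338 FPKM, overlapping where Cks2 did not. Ensa, an inhibitor of the phosphatase that opposes CDK1, was at 89.2 ± 11.8 against 85.8 ± 15.04 FPKM (SD, n = 3 and 2). Plk4, the kinase of centriole duplication, was at 15.4, 13.1 and 15.7 against 22.8 and 29.6 FPKM, without overlap (log2 fold change 0.78, SE 0.43; limma, adjusted p = 0.661). DREAM, MuvB and E2F genes, which control the timing of this transcription, were positive in 10 of 18 with a median of 0.10, which was 0.0084 without control replicate 3. Tfdp1, the E2F dimer partner, was at 114 ± 22.4 against 151 ± 41.2 FPKM, and Lin37, of MuvB, at 73.8 ± 16.9 against 77.2 ± 16.8 FPKM (SD, n = 3 and 2). E2f5, a repressive E2F of DREAM, was at 44.4, 15.2 and 10.3 against 5.66 and 4.68 FPKM, below every control (log2 fold change -1.72, SE 0.70; limma, adjusted p = 0.564).

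**Figure D4:**
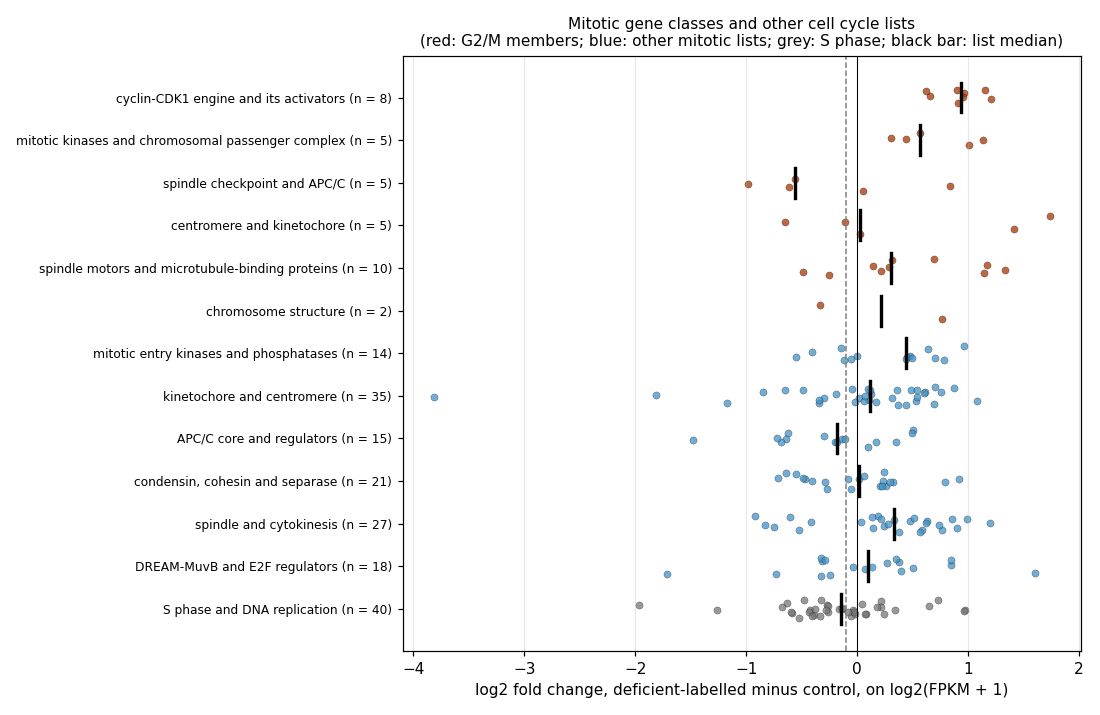
Log2 fold changes, deficient-labelled minus control on the log2(FPKM + 1) scale, for the 6 role classes of members (red), 6 other mitotic lists (blue) and replication genes (grey); each point is 1 gene, bars are list medians and the dashed line is the median of all tested genes. The cyclin-CDK1 class has a median of 0.93 (0.56 without control replicate 1), and the replication list lies at -0.15.

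Exons of 13 of the 35 members overlap exons of another gene in GENCODE M21 (GRCm38), 10 of them with a protein-coding partner. Among members above every control these include Ccna2 (with Exosc9), Kif20a (Cdc23), Nusap1 (Oip5), Tacc3 (Tmem129) and Ube2c (Tnnc2), all on opposite strands. No source used here says whether counting used strand, so reads from such pairs cannot be told apart. Cdk1, Ccnb1, Cks2, Cdca3, Birc5, Cenpa, Hmmr, Mki67, Bub1 and Bub1b had no such overlap.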

How the data were processed

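Values in the deposited table are FPKM for each gene symbol, as the authors named the table. Per the submitters' processing notes the build was mm9 and the tools TopHat and edgeR, with no version or role; the step that computed FPKM is not stated, nor its annotation or filters. Because each value is relative to the whole library, very abundant transcripts in a library push down its other values. Groups and replicate numbers came from sample titles. limma 3.58.1 (R 4.3.3) was fitted to log2(FPKM + 1) of genes averaging 1 FPKM or more, with a group term alone and trended eBayes; tests were two-sided, Benjamini-Hochberg adjusted over 10570 genes, at a threshold of 0.05. This scale understates changes of low genes. The code was tested on simulated data, in which the changes set were larger than that of any member. That run does not show whether changes of the members' size could be called.

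The members and lists were chosen with earlier results of these data known. A marker gene is not reported here. All members are named. Of each other list the 2 genes highest in mean FPKM and the 1 with the largest fold change among those of at least 5 FPKM are named. Alternatives covered the pseudocount, filter, scaling, moderation, replicate block and leaving out each library. Promoters came from RefSeq windows and exon overlaps from GENCODE M21, both on GRCm38 and matched by symbol. Python 3.11.15, pandas 2.3.3 and matplotlib 3.10.9 were used.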

Additional observations from a re-analysis of the deposited data

How the results depend on the processing

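No member passed the threshold under any of the 13 alternatives, and 24 of 35 members kept the sign of their fold change in all of them. The number of genes past the threshold, 2 of 10570, was 0 with a pseudocount of 0.1 or with no filter, 4 after median-of-ratios scaling, 1 without the trend, 5 with robust eBayes, and 0 to 2 when 1 library was left out. The labels do not say whether replicate numbers pair the libraries. Correlations of deviations were 0.035 and 0.0069 for numbers 1 and 2, but deviations of only 2 deficient-labelled libraries mirror each other, so these cannot decide it. With the number as a replicate block 22 genes passed, no member among them. That fit uses most libraries for its terms and leaves little to estimate spread, so its count does not show a gain from pairing. Control replicate 3 has no partner in that fit, so its fold changes equal those without control replicate 3. The members' median of 0.62 ranged from 0.36 (without control replicate 1) to 0.64 when 1 library was left out. Members above every control numbered 17 to 23 and below 2 to 7 with 1 library left out, which can only keep or raise both counts. Without deficient-labelled replicate 1 they numbered 23 and 4, against 21.6% and 33.4% of all tested genes. Without replicate 2 of that pair they numbered 17 and 7, against 26.5% and 28.6%. These shares were not taken with a control left out. Members below every control numbered 1 after either scaling. Fold changes that turned sign ranged, with 1 library left out, from -0.057 to 0.80 for Cdca8, -1.75 to 0.62 for Ttk, -0.35 to 0.44 for Cdc20, -0.67 to 0.57 for Cenpe, -0.28 to 0.34 for Ndc80, -0.51 to 0.0066 for Kif11, -0.35 to 0.94 for Kif23, -0.84 to 0.033 for Prc1, -0.024 to 0.495 for Tpx2, -0.35 to 0.63 for Spag5 and -0.71 to 0.036 for Top2a. Cenpe was at 0.0084 with median-of-ratios scaling and 0.045 with quantile normalization. Spag5 was at -0.057 with the replicate block, the same value as without control replicate 3. The cause of these changes was not tested. Leaving out a library of the deficient-labelled pair assumes that the other varies like the controls. Depth is not known in reads, so no counting error can be given.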
